A study of Mus musculus with 1615 samples.

Results

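Ano1-high visceral smooth muscle cells were 125 of the 1615 single cells sequenced from mouse colon, and they were chosen by their own counts. Levels (CPM, a gene's count per 1000000 gene counts of the cell, spike-ins left out) were computed for each cell, and a cell was kept with Myh11 at or above 1000 CPM, Notch3 and Pdgfra each under 200 CPM, Cdh5 and Epcam each under 100 CPM, and more Ano1 than F2r. The cells left by the same gate with more F2r than Ano1, 395 in number, are called F2r-high here, and 15 gated cells had Ano1 equal to F2r, 6 of them with no count of either. The series came from 11 mice of 5 fluorescent reporter lines, 2 female and 9 male by their labels, and every cell was a sorted single cell with its own full-length Smart-Seq2 library, which carries no molecular identifiers. All 125 cells came from the 3 mice of the dual line ACTA2GFP:CSPG4dsRED, whose name joins a green reporter of Acta2 with a red reporter of Cspg4. None of the 509 cells of the other 4 lines met the gate. Of these 3 mice, 20GG79:1 and 20GG95:3 are labelled female and 20GG79:6 male, all with the age range of 8 to 30 weeks. The series text speaks of male mice only and of a lower upper age, and the protocol text names the heart where the tissue field says colon. The gates of the sort were not given in the sources used here, so the shares of cells below are shares of what the sort let through.

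Visceral smooth muscle lines the gut wall in a circular and a longitudinal layer and in the thin muscularis mucosae, and its tone follows from calcium entry, phosphorylation of myosin and signals from nerves, interstitial cells and hormones. Ano1 encodes a calcium-activated chloride channel, best known in the gut from the pacemaker interstitial cells of Cajal and also found in vascular muscle. F2r encodes the thrombin receptor PAR1. Stromal and muscle cells below the crypts are also a known source of BMP antagonists and R-spondins, secreted proteins that act on the epithelium.

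The values that chose the cells are a description of the rule. Ano1, on chromosome 7 from 144588549 to 144751974 of the GRCm38 build, stood at 1734, 1413 and 1199 CPM in the summed Ano1-high cells of mice 20GG79:1, 20GG79:6 and 20GG95:3 (values by mouse are in this order throughout). F2r stood at 49.9, 87.1 and 8.63 CPM there, against 1817, 1850.5 and 1486 CPM in the F2r-high cells. The Ano1 level varied widely among single cells, from 4.53 to 5307 CPM with a median of 894 CPM. It was at or above 100 CPM in 101 of the 125 cells, at or above 500 in 77 and at or above 1000 in 56. F2r was not detected in 42 of the 125 cells, and its highest value among the 125 was 411 CPM. The lowest Myh11 of a chosen cell was 1328 CPM, while the nearest cell left out by Myh11 had 995 CPM. The highest Notch3 among the chosen was 178 CPM, and of the 134 cells that Notch3 alone kept out the lowest had 244 CPM. On Epcam, the highest chosen cell had 55.5 CPM and the 1 cell it alone kept out 153 CPM, while neither Pdgfra nor Cdh5 alone kept out any cell. Nearest to the line between both classes were an Ano1-high cell with 7.58 CPM of Ano1 and 3.79 of F2r and an F2r-high cell with 2.96 and 5.91. Only 8 of the 125 cells had Ano1 at most 2 times F2r.

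**Figure D1:**
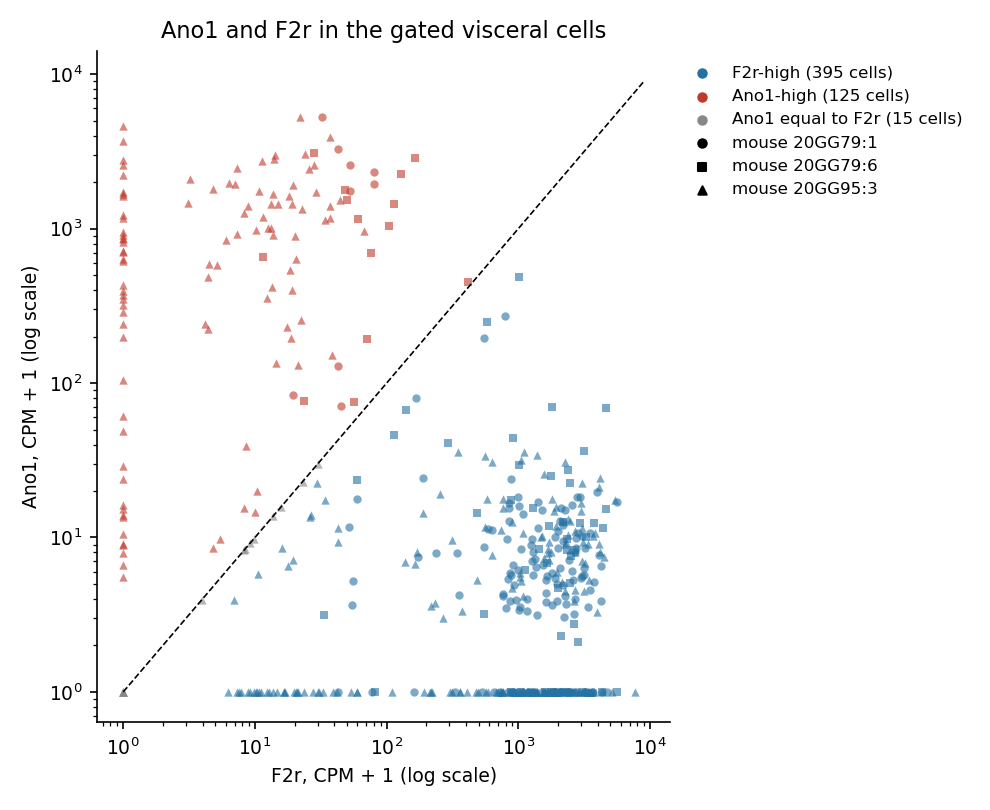
Ano1 (y axis) against F2r (x axis), each as CPM + 1 on a log scale, in every gated visceral cell, coloured by class and with a marker shape for each of the 3 mice. The dashed line marks equal levels, and the plot shows 125 Ano1-high cells above it, 395 F2r-high cells under it and 15 cells on it.

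The muscle label was read on contractile genes that the gates did not use, and on the markers given with it. Myh11, the smooth muscle myosin heavy chain, stood at 4163, 3978 and 5513 CPM, a level the rule itself sets. Actg2, the enteric smooth muscle actin, reached 1549, 2342 and 3005 CPM, in the same range as in F2r-high cells (log2 difference -0.11 ± 0.21 SE, edgeR adjusted p = 0.989). Acta2, for which the green reporter is named, did not pass either (log2 difference 0.10 ± 0.17 SE, edgeR adjusted p = 0.983). Des, the muscle intermediate filament, stood at 1118, 2713 and 2613 CPM against 364, 565 and 878 CPM in F2r-high cells. Shisa3, a membrane adaptor that dampens WNT and FGF receptors, stood at 848, 619.8 and 900.4 CPM against 1.72, 3.67 and 53.3. Npnt, a matrix ligand of integrin alpha8, stood at 364, 139 and 246 CPM against 0.835, 5.07 and 13.5. These 3 genes came with the label and were given no test. Ano1 and Des do not set these cells apart from vascular smooth muscle, in which Ano1 stood at 1339, 1173 and 835 CPM and Des at 1985, 1761 and 3006.

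Markers of other cell types were read in the same sums. The lists hold genes that chose the cells, Pln among the vascular and Notch3 among the pericyte markers, and the sums of these 2 lists leave them out. None of the vascular muscle markers was detected in 25% of the cells, and the 7 outside the gates summed to 90.3 to 277 CPM over the mice, against 5.64 to 56.0 in F2r-high and 1541 to 2390.1 in vascular cells. The 7 pericyte markers outside the gates summed to 2549 to 4845 CPM, against 624 to 1179 in F2r-high and 4312 to 6654 in vascular cells. Of the 125 cells, 111 had at least 2 of these 7 at 50 CPM or more, against 174 of the 395 F2r-high cells and 96 of the 97 vascular cells. Rgs5, Kcnj8 and Abcc9 carried much of that sum, while Pdgfrb stood at 624, 426 and 268 CPM and Cspg4 at 237, 221 and 218. The rest of the 7 were low in most mice. Higd1b stood at 8.60, 0 and 0.553 CPM (8.80, 0.482 and 14.9 in vascular cells). Ndufa4l2 stood at 99.5, 3.45 and 5.42 CPM (593, 1096 and 396 in vascular cells). Rgs5, a regulator of G protein signalling, stood at 2924, 1413 and 1006 CPM, but its difference from F2r-high cells did not pass (log2 difference 2.87 ± 0.51 SE, edgeR adjusted p = 0.0747). The 6 fibroblast markers outside the gates summed to 630.4 to 2138 CPM, against 746 to 1535 in F2r-high cells. At least 2 of them stood at 50 CPM or more in 43 of the 125 cells, against 224 of the 395 F2r-high cells. Kit, which defines interstitial cells of Cajal, had 0 counts in all 125 cells, and the 5 markers of those cells summed to at most 46.6 CPM. Epithelial markers reached 412 CPM and mesothelial markers 327 CPM in mouse 20GG79:6, the highest of the 3 mice for both. Ptprc, the common leukocyte gene, had 0 counts. The part of the pericyte genes in the differences below was not tested, because 111 of the 125 cells carry at least 2 of them at 50 CPM or more.

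The cells were unevenly spread over the mice, 9, 14 and 102 cells. As a share of Ano1-high and F2r-high cells together, they made up 5.73% in 20GG79:1 (exact 95% interval 2.65 to 10.6), 23% in 20GG79:6 (13.2 to 35.5) and 33.8% in 20GG95:3 (28.5 to 39.4). The last of these mice lay on a pair of plates, and its share was 32.7% on the plate 053s and 34.3% on the other. Intervals cover the counting of cells only, and not the variation between mice or the selection by the sort. With 1 male among 3 mice, sex and mouse cannot be told apart. The Ano1-high cells held 53031 to 587220 gene counts each, with a median of 154428 counts and 3642 detected genes. The medians were 198386 counts and 4513 genes in F2r-high cells and 159621 counts and 3785 genes in vascular cells. Depth differed more between mice than between classes, with medians of 354812, 176413 and 139368 counts in the Ano1-high cells.

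Against the F2r-high cells of the same mice, Ano1-high cells carried more transcript of the tachykinin receptor Tacr2, of prostaglandin and adenosine receptors, of the BMP antagonists Grem1 and Chrdl1, and of Fgf10 and IGF binding proteins. They carried less of the hedgehog antagonist Hhip, of the bradykinin receptor Bdkrb2, of cardiac actin Actc1 and of fibronectin and laminin beta1. The counts of each class were added up by mouse and fitted with edgeR's quasi-likelihood test with the mouse as a block, and a gene passed at an adjusted p of at most 0.05. Of 14304 genes tested, 22 were higher (0.154%) and 16 lower (0.112%) in Ano1-high cells, and 1006 had an unadjusted p under that threshold. The median log2 difference over all genes was -0.27. Scaling by relative log expression in place of trimmed means moved it to -0.15 and gave 30 higher and 18 lower genes. Without the 11 members that carried vascular markers, 64 genes passed, all 38 among them, and without cells carrying at least 2 fibroblast markers at 50 CPM, 33 passed, 20 of them among the 38. The latter left out 43 of the 125 Ano1-high and 224 of the 395 F2r-high cells, and mouse 20GG79:1 kept 1 Ano1-high cell and did not enter. That fit had 2 mice and 1 residual degree of freedom, and the cells and the mouse left out cannot be told apart. Both alternatives were run after the data were seen. The p-values rest on how the class difference varied over these 3 mice. The level of each mouse is taken out by the block, and the spread is moderated over genes. The cells were parted on Ano1 and F2r and the other genes were read in those same cells, so a call says that a gene went with the split and does not show a separate cell type. In simulated sums of this comparison, 29% of genes with a log2 change of 3 were recovered, so a gene that did not pass is not shown to be level. The gene lists counted below were chosen with earlier results of these data known, so counts and medians by list are a description.

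**Figure D2:**
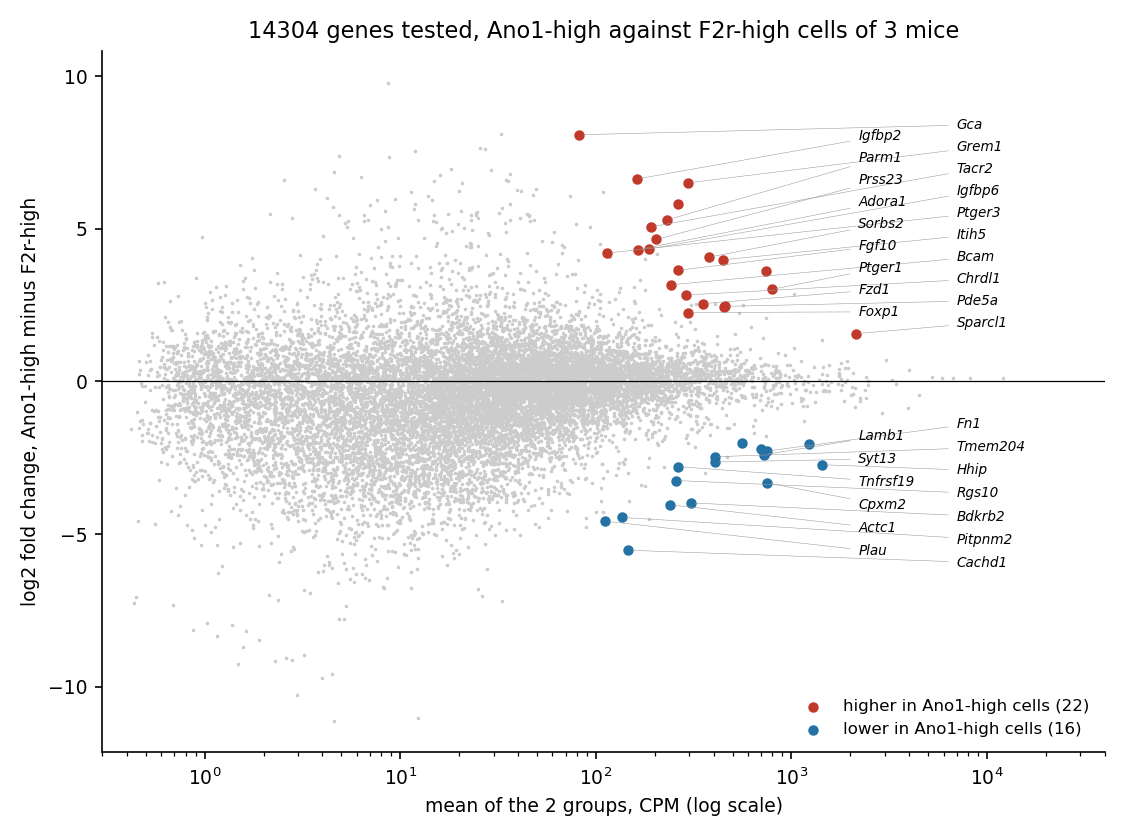
Log2 difference between Ano1-high and F2r-high cells (y axis) against the mean CPM of both classes on a log scale (x axis), with 1 point for each of the 14304 genes tested over 3 mice. Red and blue points are the 22 higher and 16 lower genes, and those described carry labels: the higher ones run from Sparcl1 at 1.56 to Gca at 8.08, and the labelled lower ones from Fn1 at -2.28 to Cachd1 at -5.53.

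The windows before the RefSeq starts of 4 genes that these results turn on are shown because they went with the split, Ano1 by the rule, Grem1 and Tacr2 as higher and Actc1 as lower. Each is the 250 bases upstream of the start in build GRCm38.p6, 5′ to 3′ on the strand of the gene: Ano1 at chr7:144738574-144738823, minus strand, Grem1 at chr2:113758649-113758898, minus strand, Tacr2 at chr10:62252188-62252437, plus strand, and Actc1 at chr2:114052876-114053125, minus strand. Capitals mark a CArG box, the element that serum response factor binds in many muscle genes, read here as CC, 6 bases of A or T, and GG, which matches on both strands at once.
Ano1: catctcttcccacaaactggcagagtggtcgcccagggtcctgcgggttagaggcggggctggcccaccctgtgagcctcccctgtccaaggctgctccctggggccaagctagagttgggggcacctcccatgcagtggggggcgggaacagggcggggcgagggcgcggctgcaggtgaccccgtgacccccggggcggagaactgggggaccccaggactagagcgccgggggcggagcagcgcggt
Grem1: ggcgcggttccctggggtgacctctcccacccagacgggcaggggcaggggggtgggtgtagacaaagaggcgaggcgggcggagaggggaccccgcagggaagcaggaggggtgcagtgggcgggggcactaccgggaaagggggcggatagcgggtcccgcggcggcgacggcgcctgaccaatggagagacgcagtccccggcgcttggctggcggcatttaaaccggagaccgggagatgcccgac
Tacr2: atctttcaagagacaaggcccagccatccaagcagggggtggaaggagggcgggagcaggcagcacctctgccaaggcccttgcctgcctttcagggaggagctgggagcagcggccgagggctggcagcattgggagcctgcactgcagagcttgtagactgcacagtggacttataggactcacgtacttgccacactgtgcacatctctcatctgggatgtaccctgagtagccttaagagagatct
Actc1: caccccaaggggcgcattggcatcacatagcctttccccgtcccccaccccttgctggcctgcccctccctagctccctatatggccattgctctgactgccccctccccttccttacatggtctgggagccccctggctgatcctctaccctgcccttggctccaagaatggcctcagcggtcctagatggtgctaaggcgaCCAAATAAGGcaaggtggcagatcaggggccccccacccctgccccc
The box of Actc1 lies 47 to 38 bases before the RefSeq start, and the other 3 windows hold none. The gene annotation used for the symbols places Ano1 at 144588549 to 144751974 and Actc1 at 114047282 to 114053548. The windows of these genes thus lie inside the genes as annotated there, upstream of the RefSeq start only. Of 32851 such windows in the RefSeq table, 1.47% hold a box, and the share was 1.47% among the 9975 tested genes with a window. Among the genes that passed, 0 of the 17 higher genes with a window and 1 of the 10 lower ones held a box. A match is a description of the letters, and a missing match says only that they are not in this window.

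Among the receptors, 4 of 41 tested genes were higher and 1 was lower in edgeR, with a median log2 difference of -0.17. Over all 14304 genes, 0.154% were higher and 0.112% lower. Of the 41, 12 had an unadjusted p under 0.05. DESeq2 called 7 of them higher and 3 lower, beside 274 and 511 over all genes, and limma 3 and 1, beside 22 and 23. Tacr2, the neurokinin A receptor through which enteric motor nerves contract gut muscle, stood at 428, 346 and 329 CPM in Ano1-high cells and at 19.1, 3.90 and 20.5 CPM in F2r-high cells. All 3 Ano1-high values lay above all F2r-high values (log2 difference 5.06 ± 0.65 SE, edgeR adjusted p = 0.0225). Ptger1, the EP1 receptor of prostaglandin E2, stood at 1915, 1090.1 and 1194 CPM against 168, 124 and 295 CPM. It was also separate in every mouse (3.02 ± 0.38 SE, adjusted p = 0.0225). Adora1, the inhibitory adenosine A1 receptor, was nearly level over mice at 312, 289.8 and 319 CPM, against 11.4, 11.4 and 37.4 CPM (4.31 ± 0.60 SE, adjusted p = 0.0239). Ptger3, the EP3 receptor, stood at 316, 93.1 and 234 CPM against 23.6, 5.46 and 10.9 (4.20 ± 0.59 SE, adjusted p = 0.0239). Without 20GG95:3 the log2 difference was 4.13 with an adjusted p of 0.238, in a fit with 1 residual degree of freedom. Bdkrb2, the bradykinin B2 receptor, went the other way, at 7.94, 41.0 and 93.8 CPM against 452, 595 and 644 CPM (-3.98 ± 0.56 SE, adjusted p = 0.0239). Vipr2, a receptor of vasoactive intestinal peptide named here after its values were seen, stood at 201, 354 and 257 CPM against 46.6, 8.97 and 69.1 but did not pass (3.10 ± 0.77 SE, adjusted p = 0.27).

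**Figure D3:**
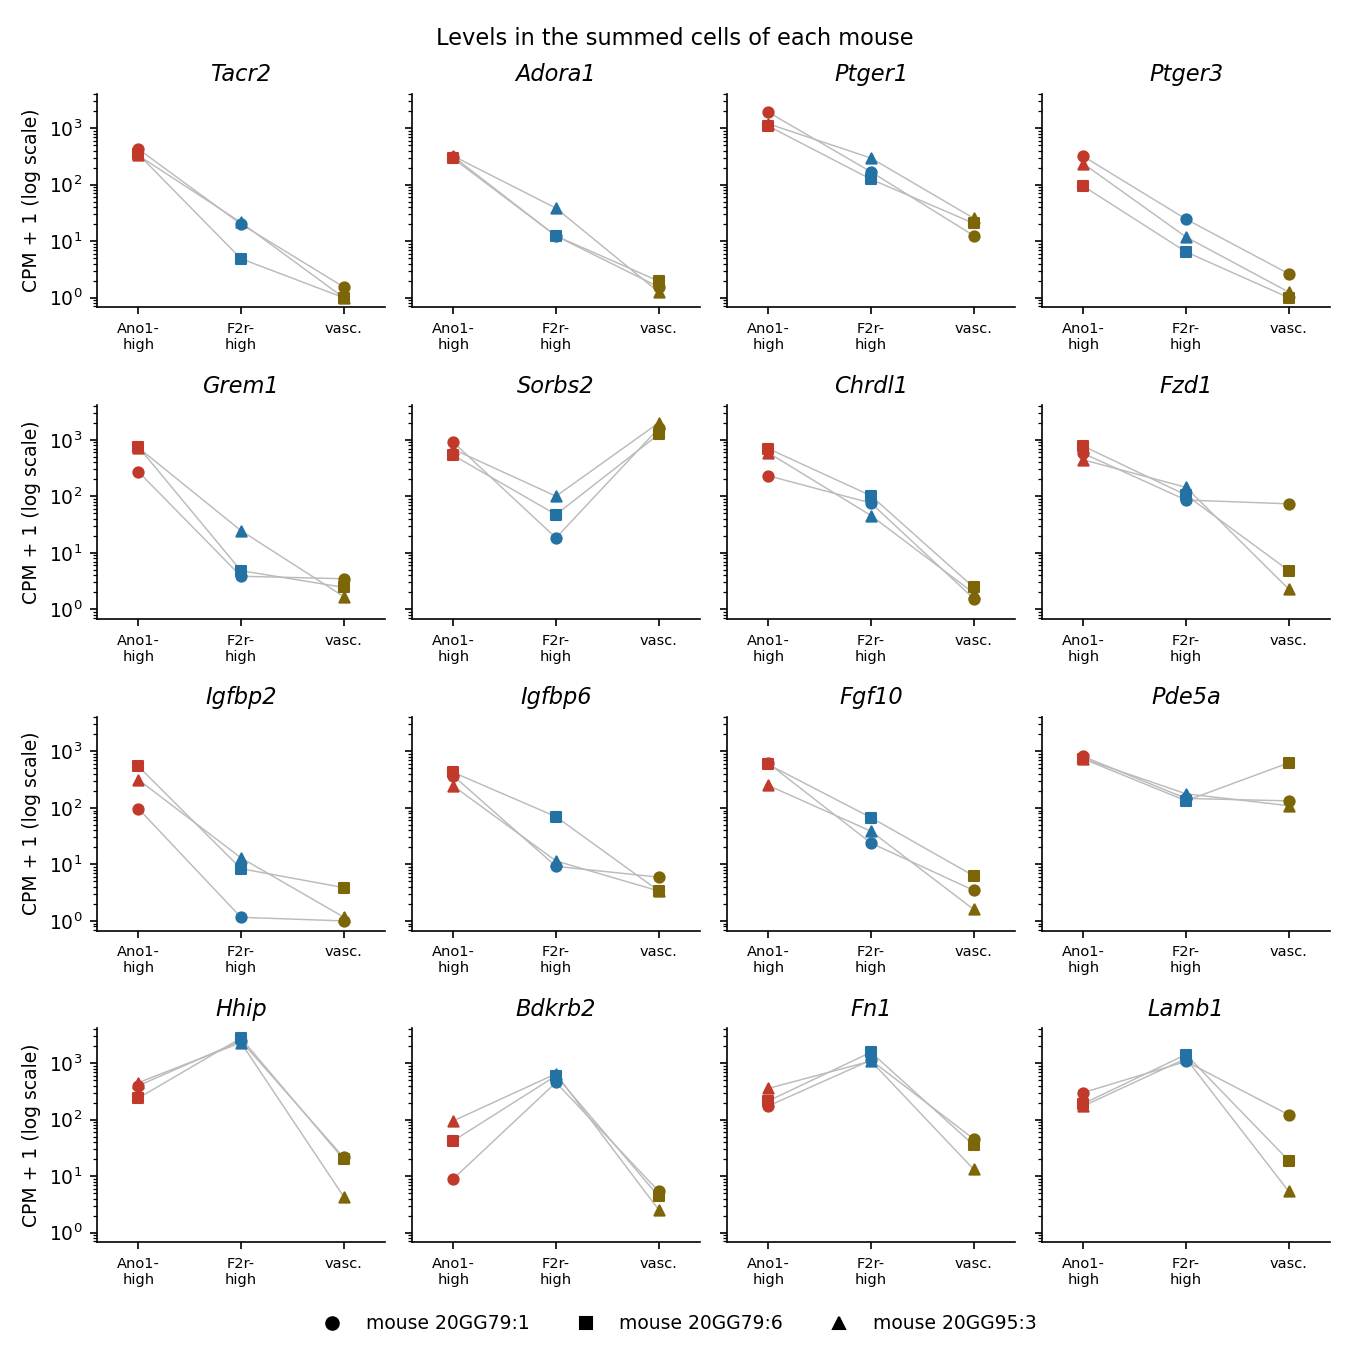
Level of 16 genes in the summed Ano1-high, F2r-high and vascular cells of each of the 3 mice, as CPM + 1 on a log y axis, with a marker shape per mouse and grey lines joining a mouse's values. In the first 12 panels the Ano1-high values lie above the F2r-high values in every mouse, and in the panels of Hhip, Bdkrb2, Fn1 and Lamb1 they lie below them.

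In the list of BMP, WNT and Hedgehog genes, 4 of 54 tested genes were higher and 1 lower in edgeR, beside 0.154% and 0.112% of all genes. The median log2 difference was -0.33 beside -0.27 over all genes, and 17 of the 54 had an unadjusted p under 0.05. DESeq2 called 7 of them higher and 2 lower, beside 274 and 511 over all genes, and limma 2 and 1, beside 22 and 23. The secreted BMP antagonists Grem1 and Chrdl1 were among the 4 higher in edgeR. Grem1, gremlin-1 on chromosome 2 from 113746164 to 113758646, stood at 272, 751 and 728 CPM in Ano1-high cells and at 2.84, 3.82 and 23.7 CPM in F2r-high cells (log2 difference 6.5 ± 0.66 SE, edgeR adjusted p = 0.0129). The groups were far apart in each mouse, and the call held in all 19 alternatives run. Chrdl1, chordin-like 1, stood at 229.8, 697 and 589.9 CPM against 74.8, 101 and 44.7 CPM (2.83 ± 0.44 SE, adjusted p = 0.0365), and without mouse 20GG95:3 at a log2 difference of 2.41 and an adjusted p of 0.196. Fzd1, a WNT receptor, passed narrowly at 572, 772 and 441 CPM against 84.9, 104 and 143 (2.55 ± 0.41 SE, adjusted p = 0.0466). Leaving out 20GG79:1 gave 2.30 with an adjusted p of 0.0546, and leaving out 20GG79:6 gave 2.24 with 0.0616. Hhip, which binds and sequesters hedgehog ligands, was the lower gene of the list in edgeR. It stood at 396, 238 and 448 CPM against 2478, 2764 and 2297 CPM (-2.73 ± 0.26 SE, edgeR adjusted p = 0.0122). Ptch1, a hedgehog receptor and target named after its values were seen, stood at 568, 332 and 465 CPM against 647, 819 and 662 CPM and did not pass (-0.55 ± 0.31 SE, adjusted p = 0.803). Rspo3, an R-spondin that strengthens WNT signals in crypts and also named after its values were seen, fell just outside at 269, 144 and 229 CPM against 0.564, 4.29 and 7.70 CPM (6.20 ± 1.03 SE, adjusted p = 0.0534).

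Secreted growth factors and their binding proteins added 3 higher genes and no lower one among 62 tested in edgeR, with a median log2 difference of 0.06. Over all genes, 0.154% were higher and 0.112% lower. Of the 62, 25 had an unadjusted p under 0.05. DESeq2 called 9 of them higher and 6 lower, beside 274 and 511 over all genes, and limma 3 and 0, beside 22 and 23. Fgf10, an FGF that acts from mesenchyme on epithelium, stood at 616, 586 and 249 CPM against 22.9, 66.5 and 37.7 CPM (log2 difference 3.64 ± 0.52 SE, edgeR adjusted p = 0.0256). Igfbp2 stood at 96.6, 545 and 316 CPM against 0.158, 7.41 and 12.1 CPM (6.63 ± 0.97 SE, adjusted p = 0.0293), the widest spread over mice of the 3. Igfbp6 stood at 371, 425 and 244 CPM against 8.24, 69.0 and 10.5 CPM (4.34 ± 0.64 SE, adjusted p = 0.0311), and without 20GG95:3 it no longer passed (4.27, adjusted p = 0.0975). Both encode binding proteins that hold insulin-like growth factors.

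Between both visceral classes, 22 of 14304 genes were higher (0.154%) and 16 lower (0.112%) in edgeR, and 1006 had an unadjusted p under 0.05. Of the 57 contractile genes among them, 1 was higher, none lower, and 6 had an unadjusted p under 0.05. The higher gene was Sorbs2, a scaffold at Z-discs and adhesions, at 903, 529.6 and 679 CPM against 17.4, 46.5 and 99.4 CPM (log2 difference 4.07 ± 0.62 SE, edgeR adjusted p = 0.0357). Of 51 channel and calcium-handling genes none passed in edgeR and 13 had an unadjusted p under 0.05, with a median log2 difference of 0.41. DESeq2 called 4 of them higher and 3 lower, beside 274 and 511 over all 14304 genes. With limma 1 was higher, Abcc9, beside 22 higher and 23 lower over all genes. On that list are Kcnj8 and Abcc9, the subunits of the ATP-sensitive potassium channel of smooth muscle and pericytes, named after their values were seen. Kcnj8 stood at 417, 408 and 579 CPM against 114, 91.6 and 211 (1.95 ± 0.36 SE, adjusted p = 0.0864), and Abcc9 at 534, 517 and 472 CPM against 99.1, 59.8 and 157 (2.50 ± 0.43 SE, adjusted p = 0.0625). The values of both genes were separate between the classes in each mouse, and neither passed in edgeR. Pde5a, the phosphodiesterase that ends cyclic GMP signals, was the 1 higher gene of 22 in the nitric oxide list, at 813, 737 and 745 CPM against 146, 133 and 177 CPM (2.46 ± 0.32 SE, adjusted p = 0.0225). Rgs10, a brake on G protein signals, was the 1 lower of 21 in its list, at 37.0, 27.6 and 87.8 CPM against 529.6, 429.5 and 427 CPM (-3.25 ± 0.44 SE, adjusted p = 0.0239). Actc1, the cardiac alpha actin whose box is printed above, stood at 8.93, 28.8 and 47.0 CPM against 329.5, 292 and 733 CPM (-4.04 ± 0.49 SE, adjusted p = 0.0225). Without 20GG95:3 it no longer passed (-4.05, adjusted p = 0.162). Actin genes are near-identical in sequence, and how their shared reads were counted was not given in the sources used here.

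Matrix and adhesion genes parted in both directions. Fn1, fibronectin, was lower at 173, 212 and 354 CPM against 1126, 1553 and 1085 CPM (log2 difference -2.28 ± 0.29 SE, edgeR adjusted p = 0.0225). Lamb1, a laminin chain of basement membranes, was lower at 299, 190.2 and 172 CPM against 1066, 1415 and 1203 CPM (-2.40 ± 0.33 SE, adjusted p = 0.0239), though not without 20GG95:3 (-2.15, adjusted p = 0.0583). Sparcl1, a secreted matrix glycoprotein, was higher at 2811, 3524 and 3079 CPM against 1158, 1200.5 and 1078 CPM (1.56 ± 0.19 SE, adjusted p = 0.0225). These were the 2 calls among 55 fibrillar matrix genes and the 1 among 31 basement membrane genes in edgeR. Over all 14304 genes, 0.154% were higher and 0.112% lower. Of the 55, 30 had an unadjusted p under 0.05 and 19 had a positive difference, with a median of -0.43. Bcam, a laminin receptor of the immunoglobulin family, was higher at 299.6, 479 and 489 CPM against 19.0, 93.8 and 67.8 CPM (3.17 ± 0.46 SE, adjusted p = 0.0293), the 1 call of 42 integrin and dystrophin complex genes, and without 20GG95:3 it did not pass (3.38, adjusted p = 0.102). Foxp1, a forkhead factor, was the 1 call among 53 transcription factors, at 405, 613 and 436 CPM against 115, 109.8 and 99.8 CPM (2.26 ± 0.35 SE, adjusted p = 0.0365). It did not pass without 20GG79:6 (2.02, adjusted p = 0.0713) or without 20GG95:3 (2.36, adjusted p = 0.136). No gene of the Notch, junction or stress lists passed, out of 13, 27 and 33 tested, of which 1, 9 and 4 had an unadjusted p under 0.05. DESeq2 called 1, 4 and 1 of them and limma none, beside 785 and 45 calls over all 14304 genes.

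Other genes passed outside these lists. Cpe, a peptide-processing carboxypeptidase (log2 difference 3.60), the lipid enzyme Tecr (2.45), Abi3bp (-2.22), Adamdec1 (-2.04) and Plpp3 (-2.0) passed outside the rule for named genes. Itih5, which stabilises hyaluronan in the matrix, stood at 773, 1155 and 575 CPM against 40.5, 42.2 and 104 CPM (log2 difference 3.98 ± 0.54 SE, edgeR adjusted p = 0.0239). Parm1, a mucin-like membrane protein, stood at 378, 636 and 336 CPM against 8.74, 7.88 and 26.2 CPM (5.29 ± 0.66 SE, adjusted p = 0.0225). Both calls, like that of Grem1, held in all 19 alternatives, as did Cpxm2 among the lower genes. Cpxm2, a secreted protein of the carboxypeptidase family, stood at 90.6, 167 and 129 CPM against 1235, 1654 and 1216 CPM, and had the smallest adjusted p of the named genes (-3.32 ± 0.27 SE, adjusted p = 0.00484). Prss23, a serine protease, was higher by 4.65 ± 0.72 SE (adjusted p = 0.0376). Gca, grancalcin, had the largest fitted difference (8.08 ± 1.13 SE, adjusted p = 0.0239) at 139.9, 295 and 57.3 CPM, yet only 20 of the 125 cells held any count of it. Its sums thus rest on few cells, 1 of 9, 4 of 14 and 10 of 102 once each cell was thinned to 45000 counts.

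The remaining lower genes of the named set spanned a log2 difference of -5.53 to -2.47. Cachd1, a calcium channel auxiliary-like protein, stood at 5.29, 9.40 and 3.70 CPM against 244, 348 and 269 CPM (log2 difference -5.53 ± 0.60 SE, edgeR adjusted p = 0.0175), and without 20GG95:3 had an adjusted p of 0.0511. Plau, the urokinase that activates plasminogen, stood at 5.29, 8.77 and 4.92 CPM against 222, 379.9 and 46.8 (-4.57 ± 0.72 SE, adjusted p = 0.0401), and without 20GG79:6 did not pass (-4.25, adjusted p = 0.121). Pitpnm2 (-4.45), the TNF receptor family member Tnfrsf19 (-2.79), the synaptotagmin Syt13 (-2.64) and Tmem204 (-2.47) were also lower. Each of these 4 lost its call without 20GG95:3, with adjusted p-values of 0.0687, 0.122, 0.09 and 0.0554 and log2 differences of -5.06, -3.07, -2.45 and -2.73. That mouse gave 102 of the 125 cells.

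Within the Ano1-high cells, detection of these genes was uneven. After thinning to 45000 counts per cell, Shisa3 had a count in 75.2% of the 125 cells (exact 95% interval 66.7 to 82.5), Chrdl1 in 74.4% (65.8 to 81.8) and Grem1 in 64.0% (54.9 to 72.4). The unthinned shares were 83.2%, 82.4% and 71.2%. Rspo3 was found in 59.2%, Tacr2 in 48.8%, Adora1 in 43.2%, Npnt in 40.0% and Ptger3 in 36% of the thinned cells, against unthinned shares of 68.8%, 53.6%, 49.6%, 49.6% and 44.0%. In the F2r-high cells the thinned shares were 17.2% for Shisa3, 26.8% for Chrdl1, 16.2% for Grem1, 6.08% for Rspo3 and 11.6% for Tacr2. As a background, 28 cells with Cdh5 at or above 100 CPM and Myh11 under 200 CPM, an endothelial gate, gave 10.7% for Shisa3, 14.3% for Chrdl1, 3.57% for Tacr2 and 0% for Grem1 and Rspo3, where 0 of 28 has an upper exact limit of 12.3%. By mouse, Tacr2 was found in 44.4%, 42.9% and 50% of the thinned Ano1-high cells and Rspo3 in 55.6%, 57.1% and 59.8%. For Grem1 the shares were 44.4%, 71.4% and 64.7%, and for Chrdl1 33.3%, 85.7% and 76.5%. The shares of 20GG79:1 and 20GG79:6 rest on 9 and 14 cells, and no interval by mouse was computed. Npnt was found in 22.2%, 21.4% and 44.1%.

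**Figure D4:**
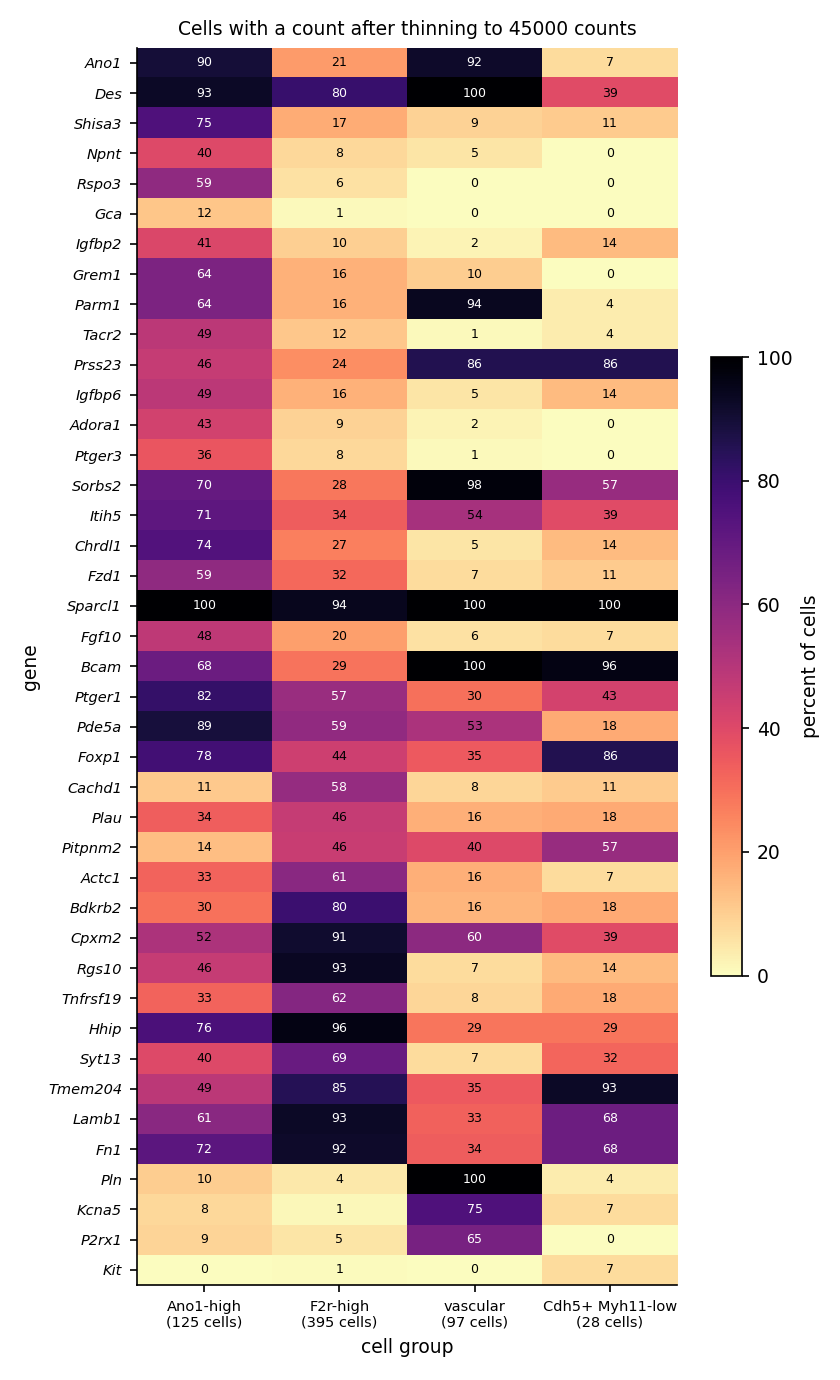
Percent of cells with at least 1 count of a gene after each cell was thinned to 45000 gene counts, as colour and as whole numbers, with genes in the y direction and the Ano1-high, F2r-high, vascular and endothelial-gate cells in columns. Shisa3 and Grem1 are found in 75.2% and 64.0% of the Ano1-high cells against 17.2% and 16.2% of the F2r-high cells.

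Detection of these genes overlapped in part. Of the 125, 67 had both Shisa3 and Grem1 after thinning, 27 had Shisa3 without Grem1, 13 had Grem1 without Shisa3 and 18 had neither. Npnt and Rspo3 were found together in 37 cells, Npnt alone in 13, Rspo3 alone in 37 and neither in 38. In the 24 cells with Ano1 under 100 CPM, Ptger1 was found in 45.8% against 90.1% of the other 101, while the median of Myh11 was 5712 against 4624 CPM. Their median depth was 132293 counts, against 159421. Another 11 cells had Pln at or above 50 CPM or at least 2 vascular markers, and there Shisa3 was found in 36.4% and Grem1 in 18.2%, with a summed Ano1 level of 1083 CPM. These subsets were drawn after the data were seen and are given as values only. Ranked by Spearman correlation with Ano1 over the 125 cells, after subtracting mouse means, genes near the top of 4323 were Vipr2 (0.40), Enpp2, which makes lysophosphatidic acid (0.40), the semaphorin and VEGF co-receptor Nrp2 (0.39) and the splicing factor Srsf5 (0.36). Depth itself had a correlation of 0.14 with Ano1, Shisa3 of 0.32 and Grem1 of 0.11. The points are cells that share 3 mice, and no test was made.

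Against all other cells of the same mice, given without a test, the 7 genes reported here that stood out most by the smallest ratio over mice were Igfbp2, Tacr2, Rspo3, Shisa3, Gca, Ptger3 and Ctxn3. Igfbp2 stood at 96.6, 545 and 316 CPM against 0.103, 3.08 and 8.49 CPM in the rest, a log2 ratio of 5.06 to 7.06. For Tacr2 the rest held 8.92, 2.79 and 11.6 CPM, a log2 ratio of 4.72 to 6.52. Ctxn3, cortexin 3, stood at 101, 15.7 and 44.1 CPM against 0.0719, 0.0886 and 1.15.

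Compared with vascular smooth muscle cells, Ano1-high cells carried more transcript of the collagens Col3a1 and Col12a1, of the BMP antagonists Grem1 and Chrdl1 and of the contractile genes Actg2 and Cnn1. They carried less of the Notch target Heyl, of the immediate-early genes Nr4a1 and Btg2 and of the receptors Adra1a and Adora2b. Several of these traits were shared with F2r-high cells, where Col3a1 stood at 5652, 4980 and 4936 CPM and Col12a1 at 657, 641 and 863. Cnn1 stood there at 1672, 1349 and 2062 CPM, Heyl at 7.38, 2.42 and 8.53, Nr4a1 at 733, 862 and 759 and Btg2 at 343, 312 and 283. None of these genes passed between Ano1-high and F2r-high cells, while Grem1 and Chrdl1 did. Adra1a stood at 0.271, 0.312 and 5.73 CPM in F2r-high cells and Adora2b at 0.0677, 0 and 0.0597, and neither was tested between the visceral classes. Of genes described below, Cacna1g stood there at 0.384, 1.01 and 1.49 CPM, Plekhn1 at 3.07, 7.64 and 3.01 and Epas1 at 239, 315 and 319. No difference of Cacna1g, Plekhn1 or Epas1 passed between the visceral classes. The vascular cells were 97 cells of the same 3 mice (16, 9 and 72) with Notch3 at or above 200 CPM and Pln at or above 50 CPM and the other limits as above. The genes of both gates were given no test, and both comparisons share the Ano1-high sums. Of 11142 genes tested with edgeR, 78 were higher (0.700%) and 65 lower (0.583%), with 1060 at an unadjusted p under 0.05 and a median log2 difference of 0.04. Of the BMP, WNT and Hedgehog list, 11 of 41 were higher and none lower, with a median of 3.12. That list, like the others, was chosen with earlier results of these data known. Grem1 stood at 2.48, 1.45 and 0.684 CPM in vascular cells (log2 difference 8.52 ± 0.87 SE, edgeR adjusted p = 0.00116), and Chrdl1 at 0.550, 1.45 and 0.941 (8.88 ± 0.79 SE, adjusted p = 0.000706). Bmp4, a BMP ligand, stood at 849, 552 and 655 CPM in Ano1-high and 32.7, 12.5 and 10.6 in vascular cells (5.29 ± 0.57 SE, adjusted p = 0.00133), and Ptch1 at 53.4, 9.16 and 31.3 CPM in the latter (4.07 ± 0.67 SE, adjusted p = 0.0151); both were named after their values were seen. Hhip, lower than in F2r-high cells, was higher than in vascular cells, where it stood at 20.4, 18.8 and 3.33 CPM (4.88 ± 0.94 SE, adjusted p = 0.0352).

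Several Ano1-high genes had almost no vascular counts, so their ratios are over few reads. The intervals of these ratios cover counting error only, and copies of a molecule cannot be told from separate molecules here. Rspo3 had 1 count in all vascular cells, a ratio of 3880 with a counting interval of 697 to 153000, and Tacr2 had 2 counts, a ratio of 2990 (828 to 24700). Nt5e, the ectonucleotidase CD73, had 1 count and a ratio of 2090 (376 to 82600), and Gca 1 count and a ratio of 1720 (309 to 67900). Col8a2 had 2 counts and a ratio of 1160 (320 to 9550). Without 20GG95:3 the fitted log2 differences of Nt5e and Col8a2 were 11.22 and 9.74, each with an edgeR adjusted p of 0.0504. On the other side, Plekhn1 had 0 counts in the Ano1-high cells and was at least 449-fold lower there against a floor of 3 counts over the class. The alpha1A adrenoceptor Adra1a and the adenosine A2B receptor Adora2b each had 3 counts in Ano1-high cells, with vascular levels higher by ratios of 908 (311 to 4400) and 612 (209 to 2970). Without 20GG79:6, Plekhn1 and Adora2b did not pass, with fitted log2 differences of -11.10 and -9.09 (edgeR adjusted p = 0.195 and 0.149). Of the 36 receptors tested against vascular cells, 4 were higher and 5 lower, with a median log2 difference of -0.58. Over all 11142 genes, 0.700% were higher and 0.583% lower.

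Of 54 fibrillar matrix genes, 16 were higher than in vascular cells and 2 lower, with a median log2 difference of 2.0. Over all 11142 genes, 0.700% were higher and 0.583% lower. The fibroblast genes Dcn and Lum are among the 16. The 6 fibroblast markers outside the gates summed to 630.4 to 2138 CPM in Ano1-high and 48.0 to 248 CPM in vascular cells, and 43 of the 125 and 13 of the 97 cells had at least 2 of them at 50 CPM or more. Their part in the matrix differences was not tested. Col3a1 stood at 2810.4, 3382 and 1889 CPM against 380.4, 271 and 185 CPM (3.22 ± 0.29 SE, edgeR adjusted p = 0.000706), and Col12a1 at 1234, 986 and 638 against 20.9, 14.9 and 4.10 (6.33 ± 0.55 SE, adjusted p = 0.000706). Of 55 contractile genes, 4 were higher and none lower, namely Actg2, Cnn1, Fhl1 and Tes. Cnn1, calponin, stood at 1177, 1810.5 and 2420.4 CPM against 313, 172 and 650.4 (2.32 ± 0.38 SE, adjusted p = 0.0151). Fhl1, a LIM protein of muscle, did not pass without 20GG79:6 (1.90, adjusted p = 0.0521). Actg2 stood at 498, 122 and 687 CPM in vascular cells (2.57 ± 0.45 SE, adjusted p = 0.0243). Cspg4, for which the red reporter is named, stood at 237, 221 and 218 CPM in Ano1-high, 66.9, 72.6 and 145 in F2r-high and 755, 1396 and 1075.4 in vascular cells, lower than in the latter (-2.29 ± 0.43 SE, adjusted p = 0.0297). Heyl, a Notch target, stood at 4.30, 4.07 and 2.27 against 920.4, 834 and 788 CPM (-8.03 ± 0.60 SE, adjusted p = 0.000458), the 1 call of 11 Notch genes, while Notch3 itself chose the classes. Cacna1g, a T-type calcium channel, stood at 0.331, 1.88 and 0.221 against 181, 650.1 and 219.9 CPM (-9.21 ± 0.94 SE, adjusted p = 0.00113). Epas1, the hypoxia-inducible factor HIF-2alpha, was lower by a log2 difference of -3.42 ± 0.37 SE (adjusted p = 0.00163).

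Genes that tissue dissociation is known to induce also parted from vascular cells: 8 of 32 were lower in Ano1-high cells and none higher. Their median log2 difference was -1.56, and 0 of 33 passed either way versus F2r-high cells. Over all 11142 genes tested against vascular cells, 0.700% were higher and 0.583% lower. Nr4a1, an immediate-early nuclear receptor, stood at 706, 936 and 1087 CPM against 4179.9, 2650.4 and 7282 in vascular cells (log2 difference -2.34 ± 0.28 SE, edgeR adjusted p = 0.00235). Btg2 stood at 386, 124 and 607 against 2660.1, 1035 and 3257 CPM (-2.83 ± 0.32 SE, adjusted p = 0.00166). The part of dissociation in these values was not tested. Some genes that were higher than in F2r-high cells also had high vascular levels. Sorbs2 stood at 1595, 1247 and 1994 CPM in vascular cells, and its difference from Ano1-high cells did not pass (-1.28 ± 0.34 SE, adjusted p = 0.119). Parm1 (-0.59 ± 0.42 SE, adjusted p = 0.79) and Prss23 (-0.48 ± 0.46 SE, adjusted p = 0.89) did not pass either, with vascular levels of 407, 862 and 666 CPM and of 506.2, 431 and 555 CPM. Bcam was higher than in F2r-high and lower than in vascular cells, where it stood at 1429, 2036 and 2383 CPM (-2.28 ± 0.30 SE, adjusted p = 0.00408).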

How the data were processed

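Raw counts per Ensembl gene and 92 spike-ins, with 1 column per cell, were used as the authors deposited them, with no normalization in the deposited table. Per the submitters' processing notes, bcl2fastq, Bowtie, Bowtie2, featureCounts and Subread and the builds GRCm38 and mm10 were used, without versions; filters on cells were not stated in the sources used here. Symbols were found for 46005 of 46517 identifiers in the GRCm38 gene annotation. No pair of cells held identical counts, and no row lacked a gene. Members, markers and gene lists were chosen with earlier results of these data known.

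The raw counts of each class were added up by mouse, for mice with at least 5 cells in each class. Sums were fitted with edgeR 4.0.16 (R 4.3.3, limma 3.58.1), TMM scaling, filterByExpr, a robust quasi-likelihood fit, the mouse as a block (2 residual degrees of freedom) and Benjamini-Hochberg adjustment over all tested genes. The SE is the log2 difference over the square root of F. The block follows from the same animals giving both classes; their deviations correlated by 0.0818, 0.127 and 0.0958 (F2r-high) and by 0.0399, 0.0831 and 0.0901 (vascular) over 10060 genes. Named genes passed at a mean of 50 CPM or more in the higher class, with 1 direction in every mouse: the 12 (F2r-high) or 5 (vascular) largest differences each way, and up to 4 or 2 per list. Not every vascular gene so named is described, and some genes picked by these rules are not reported here. Genes of the gates and label markers were kept out of the adjustment. Shares used cells thinned to 45000 counts, with exact Clopper-Pearson intervals (95%). Correlations used log2(CPM + 1). No doublet caller was run. Leaving out cells with markers of any other class was planned in its place, but it removed 117 of the 125 members and could not be fitted. Fits without cells with vascular, non-stromal or fibroblast markers were added after the data were seen. No fit left out cells for their pericyte markers, so doublets were not controlled for there. The procedure was tested on simulated data: 6% and 29% of genes changed by a log2 of 2 and 3 were recovered in the F2r-high comparison, and 1% and 8% in the vascular one. Unchanged genes called numbered 3 and 2, and the simulated mice shared the same mean levels, unlike the real ones. DESeq2 1.42.0, limma, other scaling, filters, gates and left-out mice and plates were alternatives. Python 3.11.15 with numpy 2.4.6, pandas 2.3.3, scipy 1.17.1 and matplotlib 3.10.9 did the rest.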

Additional observations from a re-analysis of the deposited data

How the results depend on the processing

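No named difference reversed under any alternative run. Against F2r-high cells, where 38 genes passed (22 higher, 16 lower), DESeq2 called 785 (274 higher, 511 lower), dropping the low-count filter gave 108, and 1 fit over the 3 classes gave 16. Requiring Ano1 more than 2 times F2r gave 62, and Myh11 at least 2000 CPM gave 63. Leaving out 1 mouse gave 34 to 59, the highest without 20GG79:6, and 57 without 20GG79:1. Of alternatives added after seeing the data, leaving out members with vascular markers gave 64 and keeping members with Ano1 at or above 100 CPM gave 75. Against vascular cells, where 143 passed, DESeq2 called 1168, limma on mean CPM per cell 290, no low-count filter 318 and 1 fit over 3 classes 276. Dropping the Pln condition gave 86, and leaving out 1 mouse gave 127 to 234, the highest without 20GG79:1. Of added alternatives, leaving out cells with markers of non-stromal classes gave 260 and those with fibroblast markers 80, both fits over 2 mice, since 20GG79:6 kept 2 vascular cells in the former and 20GG79:1 kept 1 Ano1-high cell in the latter. The cause of these shifts was not tested. Without the replicate block, 31 and 204 genes passed, 25 and 126 of them shared with the blocked fit. Of the values of named genes under alternatives, 535 kept their call and 92 lost it against F2r-high cells, and 689 and 71 against vascular cells. The number of members was 117 to 122 under the stricter gates. Leaving out every cell with at least 2 markers at 50 CPM of any other class removed 117 of the 125 members and could not be fitted. The members of 2 mice number 9 and 14, and genes at few counts there are not resolved at this depth.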

Other observations

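The 15 gated cells with Ano1 equal to F2r, which belong to no class of the report, all came from mouse 20GG95:3, 3 on plate 053s and 12 on its other plate. Their median depth was 137650 gene counts, and 3053 genes were detected in the median cell. On the plates of that mouse, the Ano1-high cells had Ano1 at 1647 CPM on 053s and 803 CPM on the other, and Grem1 at 587 and 852 CPM.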
